A study of Mus musculus with 8 samples.

Results

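Of the 35275 genes in the count table, 10 encode the enzymes that carry nitrogen through the urea cycle or move it between glutamine, glutamate and free ammonia. They were taken by symbol: Nags, Cps1, Otc, Ass1, Asl, Arg1, Arg2, Gls2, Glud1 and Glul. All 10 were found, and 9 had enough reads to be tested, the exception being Arg2. In liver, ammonia enters the urea cycle in the mitochondria as carbamoyl phosphate, is joined to ornithine to give citrulline, and leaves the cytosol as urea after aspartate has given a further nitrogen. Cells of the periportal side of the lobule hold most of this cycle and the liver-type glutaminase, whereas glutamine synthetase takes up the remaining ammonia in a narrow rim of pericentral cells. Pyruvate carboxylase makes oxaloacetate, from which the aspartate of the cycle can be made by transamination.

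The mice were C57BL/6 males (the targeted Pcx line came on C57BL/6NTac) of 9 weeks that had fasted for 24 h, with 1 liver RNA library per animal. The 4 Pcx L-/- mice lacked the floxed exon of Pcx where an Albumin-Cre transgene is active. The authors describe the deletion as specific to hepatocytes, and whether the other cells of the liver kept the gene was not tested here. The 4 littermate controls, Pcx f/f, carried the same floxed alleles without loss of the gene and are named WT in the labels and below. Reads on genes came to between 12016242 and 20023108 per library. Pcx itself, given as normalized counts (reads divided by the TMM-scaled library size and set to a common size), lay between 556 and 758 in Pcx L-/- and between 14371.4 and 22059.1 in WT; every library matched its label.

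One Pcx L-/- library stood apart from its group. Replicate 1 was the only Pcx L-/- mouse with a number in the 500s, which it shared with WT replicates 1 and 2, whereas the other mice had numbers in the 800s. Its rank correlation across genes with the other Pcx L-/- libraries was 0.9761 to 0.9828, against 0.991 to 0.9933 among those 3. Over the genes called lower in Pcx L-/-, its median difference from the WT mean was -0.40 on the log2 scale, against -0.81 for replicates 2 to 4. The summed normalized count of 5 red blood cell genes was 69306.9 in this library and between 4746.6 and 16715.2 in the other 7, and the part of this in its values was not tested. The main counts and the values of the 10 genes are therefore given with and without replicate 1. Each list gene named below as having risen or fallen also passed the threshold, in the same direction, without it.

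The summed normalized count of 7 hepatocyte markers lay between 989793.7 and 1520413.1 in Pcx L-/- and between 1755582.4 and 2162040.9 in WT, with no overlap. By edgeR's quasi-likelihood test, described below, Apoa1, Apob, Serpina1a and Cyp2e1 were called lower, 4 of 7. Of all genes 13.5% were called lower, and 22.4% of those with a mean normalized count of at least 500. The estimates of Alb, Ttr and Tat were negative without passing. Without replicate 1 the markers called lower numbered 6, where 17.8% of all genes were called lower. They numbered 1 in the absence of Pcx L-/- replicate 2, 3 or 4 and 2 in that of WT replicate 3. In whole liver, fewer cells of a type and less RNA per cell cannot be told apart. Summed markers of macrophages (5528.5 to 7127.1 in Pcx L-/- and 4831.5 to 6851.3 in WT) and of endothelial cells (4727.4 to 5677.6 and 5297.9 to 7102.4) overlapped between genotypes, although Cd68 of the macrophage list rose by 0.86 on the log2 scale (edgeR adjusted p = 0.0289). Sox9, of the cholangiocyte list, fell by 0.79 (edgeR adjusted p = 0.0226). The kidney markers summed to at most 30.5 normalized counts in any library, and the intestinal Sis and the pancreatic Prss1 had 0 reads throughout. The intestinal list summed to between 46409.5 and 55770.0 in Pcx L-/- and between 10818.4 and 16926.8 in WT, nearly all of it from Apoa4, an apolipoprotein that mouse liver also makes, which rose by 1.99 (edgeR adjusted p = 0.000196). Its Fabp2, also made in liver, was at -0.28 (edgeR adjusted p = 0.375), and Cela1 of the pancreas list rose by 0.70 (edgeR adjusted p = 0.0202). The part of these markers in the results was not tested.

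RefSeq promoter windows of assembly GRCm38.p6, each of 300 bases, were given for 5 of the 10 genes: Nags, Otc, Ass1, Glud1 and Glul. The 250 bases upstream of the start are shown for Otc, which had the largest decrease, and for Glul, whose estimate was among the smallest. They lie on the plus strand at chrX:10252055-10252304 and chr1:153899679-153899928.
Otc: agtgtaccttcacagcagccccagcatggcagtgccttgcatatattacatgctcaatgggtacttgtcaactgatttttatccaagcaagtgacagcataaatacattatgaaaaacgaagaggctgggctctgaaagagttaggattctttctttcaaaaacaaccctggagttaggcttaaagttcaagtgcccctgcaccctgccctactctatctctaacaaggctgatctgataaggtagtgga
Glul: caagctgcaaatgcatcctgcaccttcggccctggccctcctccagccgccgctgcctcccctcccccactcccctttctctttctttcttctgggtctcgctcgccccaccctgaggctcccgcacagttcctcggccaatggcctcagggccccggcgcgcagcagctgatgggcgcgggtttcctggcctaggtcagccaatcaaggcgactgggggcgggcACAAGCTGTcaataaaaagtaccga
Capitals mark the match to ACANNNTGT, the palindrome core of the steroid receptor element, from base -25 to base -17 before the Glul start, a motif held by 6.85% of all 32851 windows. Searched on both strands, the cAMP response element TGACGTCA (1.79% of windows), the C/EBP-ATF element TGATGNAA (3.97%), the C/EBP element TTGCNNAA (10.8%) and the HNF4 element CAAAGTCCA (0.475%) were not found in the 5 windows. The motif letters of TTGCNNAA can overlap those of TGATGNAA, and a match is a description of letters and not of a bound site. The GC content of the windows was 44.3% for Otc, 57.7% for Nags, 64.3% for Glul, 74.0% for Ass1 and 81.0% for Glud1, against a median of 52.7% over all windows. The Otc window held 1 CpG and the Glud1 window 51, the fewest and the most of the 5.

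The deletion was compared with WT to see how the genes of nitrogen disposal stood in fasted liver without pyruvate carboxylase. With edgeR's quasi-likelihood test, 6 of the 9 genes tested were lower in Pcx L-/- at an adjusted p under 0.05, namely Nags, Otc, Asl, Arg1, Gls2 and Glud1. Over all 13168 genes tested, 13.5% were called lower, and among the 4572 with a mean normalized count of at least 500 the share was 22.4%. The log2 fold changes of all 9 genes were negative, as were those of 50.6% of all genes tested. Their median was -0.78, against -0.01 over all genes tested and -0.10 over the more abundant ones. Otc and Asl passed the threshold with a decrease of at least 2-fold, as did 3.58% of all genes tested. Without Pcx L-/- replicate 1, all 9 were called lower, where 17.8% of all genes were, and 4 of them at 2-fold (Cps1, Otc, Asl and Arg1).

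**Figure D1:**
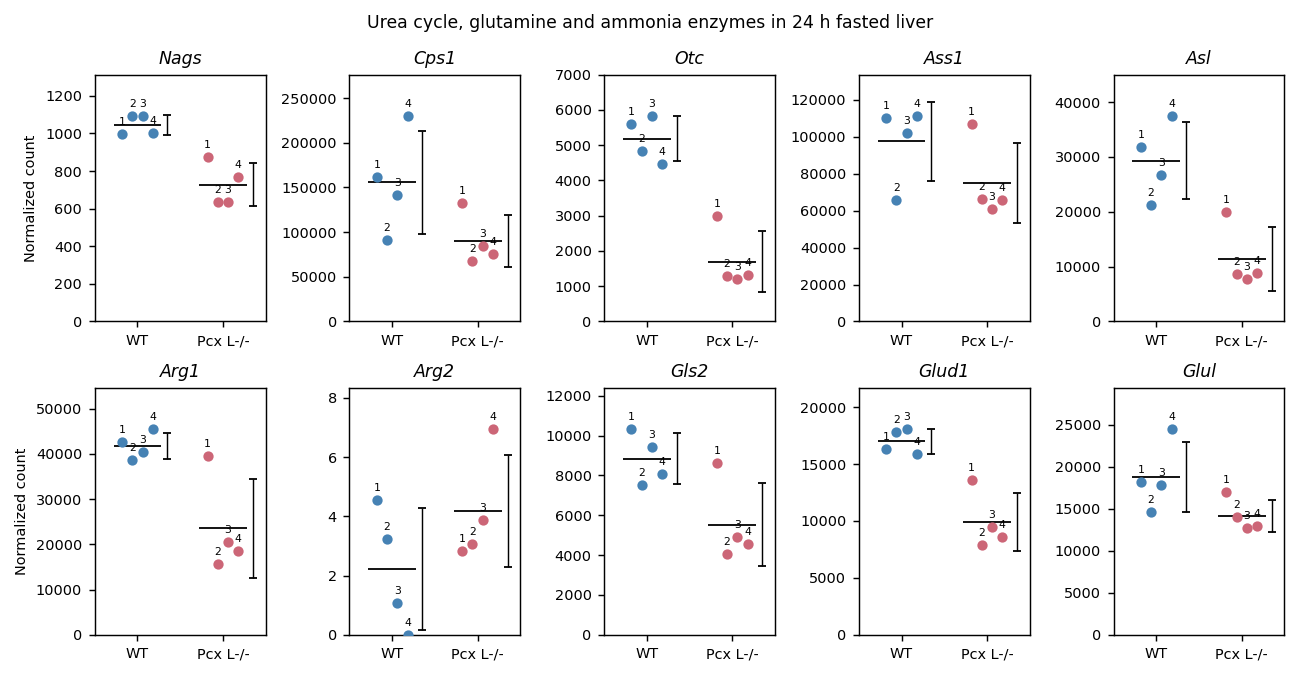
Normalized counts of the 10 genes (vertical axes, linear and starting at 0) in the 4 WT and 4 Pcx L-/- livers. Points are single mice numbered by replicate, lines are means and bars SD; Pcx L-/- replicate 1 is the highest of its group for each gene other than Arg2.

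Nags (ENSMUSG00000048217, chromosome 11, 102145513 to 102149477, GRCm38) encodes N-acetylglutamate synthase, which makes the obligate activator of carbamoyl phosphate synthetase. Its normalized counts were 998, 1091.2, 1094.2 and 1000.0 in WT replicates 1 to 4, and 873, 634, 635 and 768 in Pcx L-/- replicates 1 to 4. Every Pcx L-/- liver was below every WT liver, a pattern that 12.5% of all genes tested showed in this direction. Nags fell by 0.52 on the log2 scale (SE 0.12, edgeR adjusted p = 0.00969), and it stayed past the threshold with each mouse left out in turn (adjusted p from edgeR of 0.00128 to 0.0374). With library sizes alone as scaling, the estimate was -0.25 and the edgeR adjusted p was 0.111. Nags shares 443 exon bases with Gm11586 on the opposite strand, which had 5 reads in the 8 libraries.

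Cps1 (ENSMUSG00000025991, chromosome 1, 67123026 to 67231259) encodes carbamoyl phosphate synthetase 1, the enzyme that fixes ammonia at the entry of the cycle. WT replicates 1 to 4 had normalized counts of 161320.2, 91081.7, 141247.5 and 230399.0, and Pcx L-/- replicates 1 to 4 had 132326.6, 68205.3, 84765.3 and 75173.3. The WT livers spread over a range of more than their lowest value, and Pcx L-/- replicate 1 lay inside that range, whereas the other 3 lay below it. The log2 fold change was -0.79 (SE 0.30, 95% interval -1.44 to -0.14, edgeR adjusted p = 0.0684), so Cps1 did not pass the threshold. It passed without Pcx L-/- replicate 1 (log2 fold change -1.04, edgeR adjusted p = 0.0089), without WT replicate 2 (0.0271) and with DESeq2 (0.0164).

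Otc (ENSMUSG00000031173, chromosome X, 10252305 to 10321024) encodes ornithine transcarbamylase, which makes citrulline in the mitochondria. Its normalized counts in WT were 5597.8, 4842.5, 5836.5 and 4477, and in Pcx L-/- they were 2985.5, 1286.9, 1206.9 and 1315.7. The genotypes were well separated, with replicate 1 about midway between the other Pcx L-/- livers and WT. Otc had the largest change of the 9 genes, to 32.7% of the WT mean (1698.8 ± 859 against 5188.4 ± 636, SD, n = 4), and fell by 1.61 on the log2 scale (SE 0.27, edgeR adjusted p = 0.00237). Without replicate 1 it fell by 2.03 (SE 0.13, edgeR adjusted p = 4.65e-06). Within the mice numbered in the 500s the difference was -0.80, and within those in the 800s it was -2.01.

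Ass1 (ENSMUSG00000076441, chromosome 2, 31470207 to 31520672) encodes argininosuccinate synthase, which joins citrulline to aspartate. WT livers had normalized counts of 110344.9, 66007.9, 102183 and 111490.4, and Pcx L-/- livers had 107137.4, 66284.1, 60969.4 and 66033.8. The ranges overlapped at both ends, since WT replicate 2 was as low as most Pcx L-/- livers and Pcx L-/- replicate 1 as high as most WT. The log2 fold change was -0.38 (SE 0.24, 95% interval -0.89 to 0.14), which did not pass the threshold (edgeR adjusted p = 0.264). Without replicate 1 of Pcx L-/- it was -0.60 with an edgeR adjusted p of 0.0221. The within-number differences were 0.33 in the 500s and -0.73 in the 800s.

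Asl (ENSMUSG00000025533, chromosome 5, 130011258 to 130029247) encodes argininosuccinate lyase, which releases arginine and fumarate. The normalized counts were 31834.2, 21226.1, 26675.7 and 37508 in WT against 20023, 8719.8, 7786.5 and 8831 in Pcx L-/-. No Pcx L-/- liver reached the lowest WT value, and replicate 1 came close to it. Asl fell by 1.37 on the log2 scale (SE 0.30, edgeR adjusted p = 0.00814), to 38.7% of the WT mean. Without replicate 1 the decrease was larger (log2 fold change -1.80, edgeR adjusted p = 4.78e-05), and leaving out any other mouse kept it past the threshold (largest edgeR adjusted p = 0.0333).

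Arg1 (ENSMUSG00000019987, chromosome 10, 24915221 to 24927484) encodes the liver arginase, which splits arginine into urea and ornithine. In WT the normalized counts were 42539, 38591.4, 40417.7 and 45528.6, and in Pcx L-/- they were 39565.8, 15674.9, 20453.5 and 18432.9. WT livers lay close together, Pcx L-/- replicate 1 fell among them, and the other 3 were far below. Arg1 fell by 0.83 on the log2 scale (SE 0.26, edgeR adjusted p = 0.0357). This call rested on all mice being present, since leaving out any mouse other than Pcx L-/- replicate 1 gave edgeR adjusted p values of 0.0538 (without WT replicate 2) to 0.116 (without Pcx L-/- replicate 4). Without replicate 1 the log2 fold change was -1.20 (edgeR adjusted p = 6.19e-05).

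Arg2 (ENSMUSG00000021125, chromosome 12, 79130777 to 79156301), the mitochondrial arginase found mainly outside the liver, was almost without reads. Its read counts were 5, 3, 1 and 0 in WT and 3, 4, 5 and 7 in Pcx L-/-, too few for a test. The 0 reads of WT replicate 4 allow up to 3 reads, from counting error alone. Arg2 shares 285 exon bases with Vti1b on the opposite strand, and the sources used here do not say whether counting used strand. No difference between genotypes was detectable at this depth.

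Gls2 (ENSMUSG00000044005, chromosome 10, 128194457 to 128210004) encodes the liver-type glutaminase, which frees ammonia from glutamine in periportal mitochondria. Normalized counts were 10332.5, 7528.7, 9445.8 and 8069.8 in WT and 8620.7, 4039.3, 4894.5 and 4538.5 in Pcx L-/-. Replicate 1 of Pcx L-/- lay within the WT range and the other 3 below it. Gls2 fell by 0.68 on the log2 scale (SE 0.23, edgeR adjusted p = 0.0454), a call lost when any mouse other than Pcx L-/- replicate 1 was left out (edgeR adjusted p of 0.0507 without WT replicate 2 to 0.136 without Pcx L-/- replicate 4). It was also lost with upper quartile factors (0.0529) and with library sizes alone (0.0861). Without replicate 1 the log2 fold change was -0.98 (edgeR adjusted p = 0.000377). Gls2 shares 97 exon bases with Spryd4 on the opposite strand, which had 4287 reads in all.

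Glud1 (ENSMUSG00000021794, chromosome 14, 34310727 to 34345265) encodes glutamate dehydrogenase, which links glutamate with ammonia and 2-oxoglutarate. WT livers had normalized counts of 16319.9, 17826.9, 18085.5 and 15854.5, and Pcx L-/- livers 13591.5, 7930.6, 9499.7 and 8629.5. All Pcx L-/- values were below all WT values. Glud1 fell by 0.78 on the log2 scale (SE 0.18, edgeR adjusted p = 0.0085), or by 0.97 without replicate 1 (edgeR adjusted p = 0.000115), and it passed the threshold in each of the 20 alternative fits.

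Glul (ENSMUSG00000026473, chromosome 1, 153899944 to 153909723) encodes glutamine synthetase, the pericentral enzyme that binds ammonia to glutamate. Its normalized counts were 18155.2, 14551.3, 17853.3 and 24475.8 in WT, and 16941.3, 13948.4, 12709.8 and 12930.9 in Pcx L-/-. Only replicate 1 of the Pcx L-/- livers exceeded the lowest WT liver, although replicate 2 was near it. The log2 fold change was -0.41 (SE 0.18, 95% interval -0.80 to -0.02), which did not pass after adjustment (edgeR adjusted p = 0.11). Without replicate 1 it was -0.51 (edgeR adjusted p = 0.0306). Glul shares 116 exon bases with Teddm2 on the opposite strand, which had 155 reads in all.

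**Figure D2:**
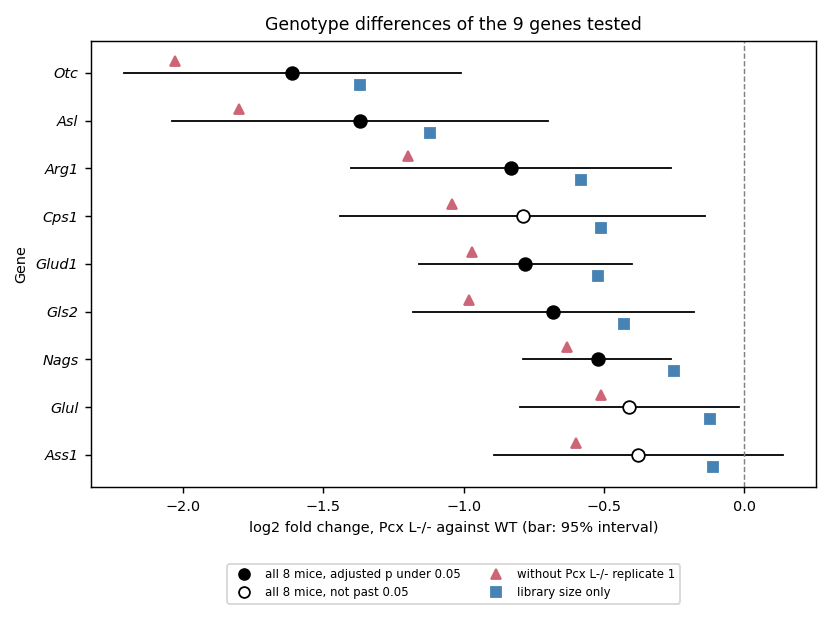
Log2 fold change of Pcx L-/- against WT for the 9 genes tested (horizontal axis) with its 95% interval from edgeR. Triangles give the estimate without Pcx L-/- replicate 1 and squares that with library sizes alone as scaling; the estimates run from -1.61 for Otc to -0.38 for Ass1 and stay below 0 in each setting drawn.

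Replicates 2 to 4 of Pcx L-/- were below all 4 WT livers for 8 of the 9 genes tested, Ass1 being the other, where 20.4% of all genes tested and 34.0% of the more abundant genes had this pattern. Among mice numbered in the 800s alone (2 WT and 3 Pcx L-/-), all 9 genes were called lower by edgeR, as were 15.8% of all genes in that fit, with log2 differences from -0.63 for Nags to -2.01 for Otc. In the 500s, with 1 Pcx L-/- mouse, the differences ran from -0.80 for Otc to 0.33 for Ass1, and those of Cps1 (0.13) and Glul (0.06) were also above 0. Each of the 9 differences was more negative in the 800s, which was not tested, and for replicate 1 the mouse number and the animal cannot be told apart.

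The scaling of the libraries moved these values without turning a direction. The 100 most-read genes took 42.8% to 45.8% of reads in WT, 41.7% in Pcx L-/- replicate 1 and 37.3% to 37.4% in replicates 2 to 4, and the TMM factors were 0.833 to 0.9423 in WT and 0.9696 to 1.1648 in Pcx L-/-. With library sizes alone, the all-gene median moved from -0.01 to 0.28 (log2), and the calls over all genes went from 1855 higher and 1777 lower to 3915 higher and 870 lower. Otc, Asl, Arg1 and Glud1 were still called lower under that scaling. The share of all reads on the 10 genes together, which uses no scaling factor, was 2.18%, 1.46%, 1.97% and 2.35% in WT and 1.95%, 1.28%, 1.38% and 1.32% in Pcx L-/-.

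Levels of different genes were compared as FPKM, the deposited reads per gene length and library total. In WT the order was Ass1 (3054.5 ± 617 FPKM, SD, n = 4), Arg1 (1507.1 ± 55.6), Cps1 (1478.7 ± 467), Asl (643 ± 125), Glul (356 ± 57.8), Glud1 (279 ± 30), Gls2 (184 ± 31.3), Otc (92.7 ± 14.7), Nags (20.6 ± 1.92) and Arg2 (0.0855 ± 0.0795). The values of Arg1 and Cps1 overlapped, as did those of Glul and Glud1, while the other neighbours did not. In Pcx L-/- the FPKM of Asl (296 ± 119) was below that of Glul (327 ± 20.1), with overlapping values, and Otc stood at 35.8 ± 14.1 and Nags at 17.3 ± 1.57. Thus Asl and Glul changed places in the order of means, and so did Arg1 (1008.8 ± 358) and Cps1 (1035.9 ± 231).

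Ratios of reads within a library do not depend on scaling between libraries. Reads of Ass1 against those of Asl, the next enzyme of the cycle, stood at 3.47, 3.11, 3.83 and 2.97 in WT and at 5.35, 7.6, 7.83 and 7.48 in Pcx L-/-. The ratio was higher in 4 of 4 Pcx L-/- livers than in any WT liver, replicate 1 included, by 1.07 on the log2 scale or 2.1-fold. The exact two-sided permutation p was 0.0286, the smallest that 4 mice against 4 can give, and 0.114 after Benjamini-Hochberg adjustment over the 4 ratios tested, so it did not pass the correction. The difference was 1.20 without replicate 1, 0.70 within the 500s and 1.18 within the 800s.

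The other ratios did not separate the genotypes. Glul against Gls2, glutamine synthesis against its hydrolysis, was 2.15 ± 0.591 in WT and 2.72 ± 0.616 in Pcx L-/- (SD, n = 4, exact permutation p = 0.257, adjusted 0.343). Cps1 against Glul, the means of fixing ammonia in the periportal and the pericentral zone, was 8.12 ± 1.39 and 6.3 ± 1.24 (n = 4, exact permutation p = 0.114, adjusted 0.228). Nags against Cps1 was 0.00756 ± 0.00326 and 0.0084 ± 0.00165 (n = 4, exact permutation p = 0.543, adjusted 0.543). Without Pcx L-/- replicate 1 these log2 differences were 0.49, -0.48 and 0.34 (exact permutation p = 0.114, 0.0857 and 0.429).

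**Figure D3:**
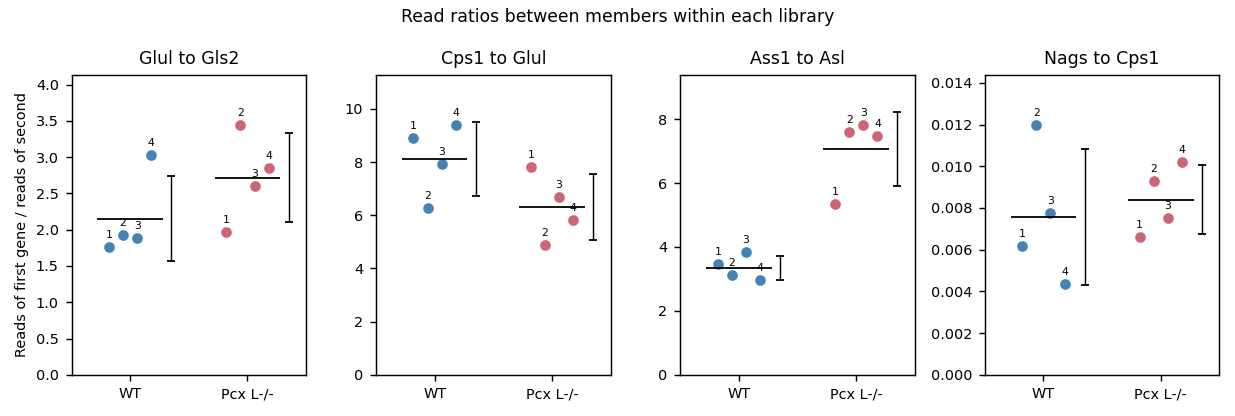
Ratio of reads between pairs of the genes within each library (vertical axes, linear and starting at 0), for WT and Pcx L-/- mice numbered by replicate, with means as lines and SD as bars. The Ass1 to Asl ratio lies between 2.97 and 3.83 in WT and between 5.35 and 7.83 in Pcx L-/-, whereas the other 3 ratios overlap.

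Around the cycle, 15 genes that supply its substrates were followed, of which 13 were tested. Of these, 1 was higher, 4 were lower and 8 did not pass, with a median log2 fold change of -0.15. Among all genes tested, 14.1% were called higher and 13.5% lower. Without Pcx L-/- replicate 1 the counts were 1 higher and 6 lower, where 2232 of 13330 genes tested were called higher and 17.8% lower. In the absence of WT replicate 1, 2 or 3, or of Pcx L-/- replicate 2 or 4, 3 genes in all were called. Car5b and Car5a, mitochondrial carbonic anhydrases that provide bicarbonate to Cps1, fell by 1.66 and 1.04 on the log2 scale (edgeR adjusted p = 0.00362 and 0.0101). Car5b was the scarcer of them, with normalized counts of 18.6 ± 9.69 in Pcx L-/- and 58.3 ± 3.95 in WT (SD, n = 4), and Car5a had 446 ± 185 and 917 ± 175. The aspartate and glutamate carrier Slc25a13 and the urea channel Aqp9 were also called lower (log2 fold change -0.70 and -0.52, edgeR adjusted p = 0.0125 and 0.0352). Slc25a22, a mitochondrial glutamate carrier and the 1 gene called higher, rose by 0.65 (edgeR adjusted p = 0.0299). This call was lost in the absence of WT replicate 1, 2 or 3, or of Pcx L-/- replicate 2 or 4, and under the replicate block. The alanine aminotransferase Gpt2, the most abundant of the list, had a log2 fold change of 0.38 (edgeR adjusted p = 0.117). With library sizes alone the list had 3 higher and 3 lower, and its median was 0.10. Over all genes, the same scaling gave 3915 higher and 870 lower, with a median of 0.28.

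Transporters of glutamine, glutamate, cationic amino acids and ammonia moved both ways. Of 11 tested, 3 were higher and 2 lower, where 14.1% of all genes tested were called higher and 13.5% lower. The median log2 fold change was 0.09. The counts of the list were the same without Pcx L-/- replicate 1, where 2232 of 13330 genes tested were called higher and 17.8% lower. Slc7a1, a carrier of arginine and ornithine that is scarce in liver, had normalized counts of 33.8 ± 11.3 in WT and 108 ± 24.1 in Pcx L-/- (SD, n = 4), a rise of 1.66 on the log2 scale (edgeR adjusted p = 0.00153). The neutral amino acid carriers Slc1a4 and Slc1a5 rose by 1.45 and 1.19 (edgeR adjusted p = 0.0013 and 0.00216). In contrast, Slc38a2 and Slc38a4 fell by 0.75 and 0.55 (edgeR adjusted p = 0.0419 and 0.0323), calls that were lost with library sizes alone, where 5 genes were higher, and under the replicate block, where 3 were. Called in all were also 3 in the absence of WT replicate 1, 3 or 4, or of Pcx L-/- replicate 2 or 4. Scaling by library sizes alone called 3915 of all genes higher and 870 lower. Slc7a2, the main cationic amino acid carrier of liver and the most abundant of the list, had a log2 fold change of -0.28 (edgeR adjusted p = 0.339), and the ammonia channel Rhcg had 0 reads.

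Enzymes that spend the amide nitrogen of glutamine had 4 higher and 1 lower among 10 tested, also without Pcx L-/- replicate 1, with a median log2 fold change of 0.39. Over all genes tested 14.1% were called higher and 13.5% lower, and without Pcx L-/- replicate 1 it was 2232 of 13330 higher and 17.8% lower. The higher calls of the list were 3 in the absence of WT replicate 1, 2 or 3, or of Pcx L-/- replicate 2, 3 or 4. They were also 3 under the replicate block. With library sizes alone the list had 7 calls, all higher, and a median of 0.68. That scaling called 3915 genes higher and 870 lower over all genes, with an all-gene median of 0.28. Asns, asparagine synthetase, rose by 2.46 on the log2 scale (SE 0.37, edgeR adjusted p = 0.00132), from 67.4, 45.5, 47.3 and 187 normalized counts in WT to 392, 471, 540 and 415 in Pcx L-/-. Its value in replicate 1 was the lowest of the Pcx L-/- livers and above every WT liver. Ctps, CTP synthase, rose by 1.94 (edgeR adjusted p = 0.000735), and Cad and Gfpt1, the first enzymes of pyrimidine and hexosamine synthesis, by 1.08 and 1.24 (edgeR adjusted p = 0.0338 and 0.0122). For both of these, replicate 1 of Pcx L-/- lay within the WT range, at 263 normalized counts against 118 to 348 for Cad and at 450 against 366 to 621 for Gfpt1. Nadsyn1 fell by 0.58 (edgeR adjusted p = 0.0135), a call lost with library sizes alone, and the most abundant, Gmps, was at 0.14 (edgeR adjusted p = 0.441).

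Ornithine that leaves the cycle can become proline or polyamines. Of 18 genes tested for ornithine, proline, arginine and polyamine enzymes, not all of them in these routes, 5 were higher and 1 was lower. Their median log2 fold change was 0.02, and the shares of all genes tested were 14.1% higher and 13.5% lower. Without Pcx L-/- replicate 1 the counts were 6 higher and 5 lower, where 2232 of 13330 genes tested were called higher and 17.8% lower. Pycr1 and Aldh18a1, which make proline, rose by 2.37 and 2.04 on the log2 scale (edgeR adjusted p = 0.00082 and 0.00431), though from low normalized counts of 7.57 ± 1.5 and 18.2 ± 2.73 in WT (SD, n = 4). Odc1 and Srm, which make putrescine and spermidine, rose by 1.09 and 1.05 (edgeR adjusted p = 0.00021 and 0.00151). Prodh2, a dehydrogenase of hydroxyproline, fell by 0.99 (edgeR adjusted p = 0.0123). Oat, ornithine aminotransferase, was the most abundant, and its normalized count of 35288.5 in Pcx L-/- replicate 1 was above all WT values (19295.1 to 33382.3) while the other Pcx L-/- livers had 9877.7 to 11868.4 (edgeR adjusted p = 0.176).

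Enzymes that release ammonia from amino acids had 1 higher and 3 lower among 10 tested, with a median log2 fold change of -0.40. The shares of all genes tested were 14.1% higher and 13.5% lower. Without Pcx L-/- replicate 1 the list had 2 higher and 5 lower, where 2232 of 13330 genes tested were called higher and 17.8% lower. With library sizes alone there were 3 higher and 3 lower, with a median of -0.13. Among all genes, this scaling gave 3915 higher and 870 lower, with a median of 0.28. Gldc, of the glycine cleavage system, fell by 1.40 (edgeR adjusted p = 0.00788), Sdsl, a serine dehydratase relative, by 1.09 (edgeR adjusted p = 0.00121), and the asparaginase Aspg by 0.91 (edgeR adjusted p = 0.00665). Asrgl1, another asparaginase, rose by 0.66 (edgeR adjusted p = 0.0102). Hal, histidine ammonia lyase, was the most abundant, with a log2 fold change of -0.60 (edgeR adjusted p = 0.122).

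Transcription factors and receptors known for urea cycle genes were mostly not past the threshold. Of 17 tested, Tbx3 rose by 0.49 (edgeR adjusted p = 0.0161), the glucocorticoid receptor Nr3c1 and the CREB coactivator Crtc2 fell by 0.51 and 0.35 (edgeR adjusted p = 0.0293 and 0.0367), and the other 14 did not pass. Tbx3 is also among the pericentral markers given below, so its rise there is the same result. Over all genes tested, by comparison, 14.1% were called higher and 13.5% lower, so the list held no more calls than that. The list's median was -0.31 (log2). Hnf4a, the most abundant, was at -0.31 (edgeR adjusted p = 0.216), the glucagon receptor Gcgr at -0.40 (edgeR adjusted p = 0.0862) and Cebpa at -0.21 (edgeR adjusted p = 0.298). Without Pcx L-/- replicate 1 the list had 1 higher and 6 lower, where 2232 of 13330 genes tested were called higher and 17.8% lower. It had 1 call in all without WT replicate 1 or 3 or Pcx L-/- replicate 2 or 3. With library sizes alone it had 2 calls, both higher, and a median of -0.03, where all genes had 3915 higher, 870 lower and a median of 0.28. Without Pcx L-/- replicate 4, edgeR called 0 of the 17, and 4 had an unadjusted p under 0.05.

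**Figure D4:**
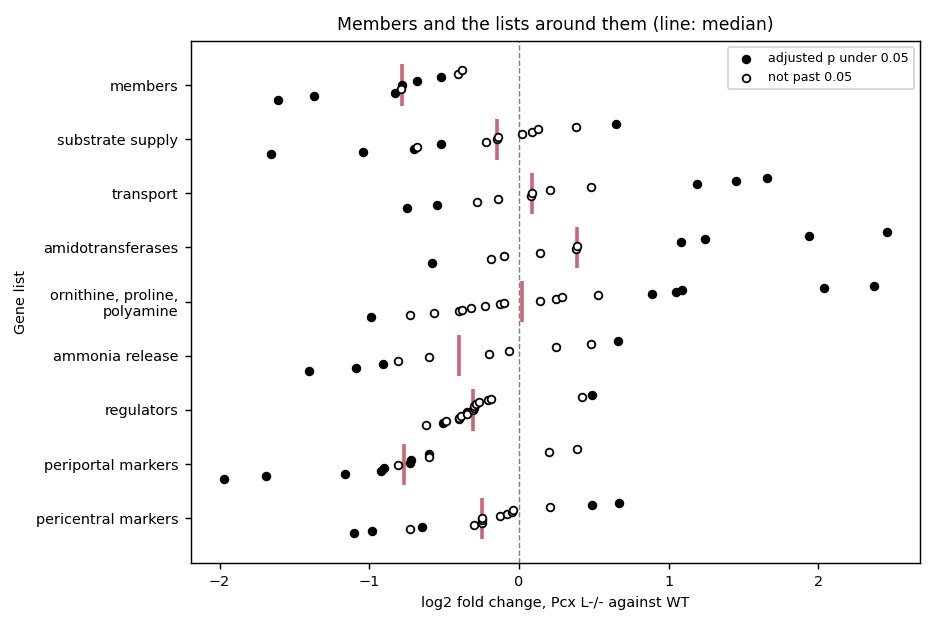
Log2 fold change of Pcx L-/- against WT (horizontal axis) for the 9 tested genes and for the genes of the lists around them, each point being 1 gene, filled where the edgeR adjusted p was under 0.05. Lines are list medians, which run from -0.78 for the 9 genes to 0.39 for the enzymes that use glutamine.

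Because the cycle and glutamine synthetase sit in opposite zones of the lobule, zone markers other than the 10 genes were read from the same fit. Of 12 periportal markers 8 were lower and 4 did not pass, with a median log2 fold change of -0.77. Among all genes tested 13.5% were called lower, and 22.4% of those with a mean normalized count of at least 500. Lower calls among the periportal markers were 9 without Pcx L-/- replicate 1, where 17.8% of all genes were called lower. They were 5 in the absence of WT replicate 3 or of Pcx L-/- replicate 2, 3 or 4. With library sizes alone there were 2 higher and 6 lower, where 3915 of all genes were called higher and 870 lower. Hsd17b13 (log2 fold change 0.39, edgeR adjusted p = 0.0552) and Aldh1b1 (0.20, edgeR adjusted p = 0.453) had positive estimates, and the Hsd17b13 values of Pcx L-/- lay above all WT values. Etnppl and Pigr fell, with log2 fold changes of -1.97 and -1.69 (edgeR adjusted p = 0.00417 and 0.00141), and Pck1, the most abundant, fell by 0.72 (edgeR adjusted p = 0.0195). Summed, the periportal markers lay between 96941.6 and 157016.6 normalized counts in Pcx L-/-, with replicate 1 the highest, and between 160545.1 and 231683.7 in WT. Of 15 pericentral markers, 2 were higher, 3 were lower and 10 did not pass, where 14.1% of all genes tested were called higher and 13.5% lower. Their median of -0.25 turned to 0.03 with library sizes alone, where the median of all genes was 0.28. Without Pcx L-/- replicate 1 there were 2 higher and 4 lower, where 2232 of 13330 genes tested were called higher and 17.8% lower. In the absence of Pcx L-/- replicate 2, 3 or 4 there were 2 lower. Cyp27a1 and Cyp2e1 fell by 1.10 and 0.98 (edgeR adjusted p = 0.00136 and 0.0188), while Axin2 and Tbx3 rose by 0.67 and 0.49 (edgeR adjusted p = 0.00759 and 0.0161). Notum was also called lower, with a log2 fold change of -0.65 (edgeR adjusted p = 0.0134). Lgr5, Rnf43, Znrf3 and Nkd1 had negative estimates that did not pass. The summed pericentral markers, 100023 to 213334.9 in Pcx L-/- and 219164 to 253271.4 in WT, did not overlap, but without Cyp2e1 the sum of Pcx L-/- replicate 1 was 64254.9, within the WT range of 45228.3 to 66525.3, while replicates 2 to 4 had 31010.9 to 33223.3. Estimates were negative for all 9 of the cycle and glutamine genes tested, for 10 of 12 periportal, 12 of 15 pericentral and 7 of 7 hepatocyte markers, and the part of cell number or zonation in the result was not tested.

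The genes whose profile over the 8 libraries was nearest to that of Cps1 were Kmo, Anxa6 and Agt, with mean absolute differences of 0.0936, 0.113 and 0.118 in log2 counts scaled to library size and centred on each gene's mean. Their log2 fold changes were -0.79, -0.75 and -0.75 (edgeR adjusted p = 0.0266, 0.0225 and 0.0308). The match was made over both genotypes, so log2 fold changes near that of Cps1 follow from the choice and are no separate result. Kmo is an enzyme of tryptophan breakdown, Anxa6 an annexin and Agt the precursor of angiotensin. Cps1 itself had a log2 fold change of -0.79 and was not called.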

How the data were processed

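Total liver RNA of 8 mice was sequenced, and the authors aligned the reads to mm10, also called GRCm38. The deposited values are raw counts of reads per Ensembl gene and FPKM made from them. STAR 2.5, HTSeq 0.6.1 and DESeq2 are named in the submitters' processing notes, with annotation release and use of strand not given in the sources used here. In 100% of the 142384 FPKM above 0, the deposited value equalled the count divided by 1 length per gene and by the library total (relative tolerance 1e-06). Symbols and positions came from GENCODE M21.

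Genotypes (4 against 4, from the labels) were compared with edgeR 4.0.16 in R 4.3.3, by the quasi-likelihood test with TMM factors and no term other than genotype. The filter filterByExpr asked for 10 reads in enough libraries and 15 over all, which left 13168 genes for Benjamini-Hochberg adjustment at 0.05. Standard errors are approximate. Ratios of reads were compared by exact two-sided permutation (scipy 1.17.1). On data simulated from these libraries, edgeR recovered 80.5% of genes changed by 1 and 99.1% of those changed by 2 on the log2 scale among 13010 genes, with 10 false calls. Only 82 and 108 genes were changed by these sizes, and no simulated library stood apart from its group. These shares therefore need not hold for the real libraries.

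The genes and lists were chosen with earlier results of these data known, and the lists come from general knowledge. Named were all 10 genes, Pcx, from each pathway list and both zone lists the 2 genes with the largest increase and the 2 with the largest decrease past the threshold and the most abundant one, and the 3 genes nearest to Cps1. Other list and marker genes were named after their values were seen. The alternatives tried were further scaling factors, further filters, DESeq2 1.42.0, limma 3.58.1 on log2(FPKM + 1) and log2(FPKM + 0.1), a replicate block, the series of the mouse number as a covariate, and each mouse left out. A fit on the mice of the 800s alone was added after the data were seen. The planned ratio of Arg1 to Arg2 was not computed, since WT replicate 4 had 0 reads of Arg2, so 4 ratios were adjusted together. Rhbg and Tf had no row under those symbols. Depth limits what can be said of Arg2 and other genes with few reads.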

Additional observations from a re-analysis of the deposited data

Results flagged for a closer look

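In 4 of the 28 groups of 4 mice examined (each gene and each ratio in each genotype), 1 mouse lay far from the other 3, judged by the gap to its neighbour as a share of the whole range (above Dixon's 95% limit for 4 values), and in all 4 it was Pcx L-/- replicate 1. Its normalized count was the highest of its group for Otc (gap share 0.939), Asl (0.915) and Ass1 (0.885). Its Ass1 to Asl ratio was the lowest of its group (gap share 0.879 on the log2 scale). Genes were judged on linear normalized counts and ratios on the log2 scale, and the flags can depend on that choice. The Glul to Gls2 ratio of WT replicate 4 was 3.03, against 1.76, 1.93 and 1.89 in the other WT mice. It was not flagged on the log2 scale. Chance flags about 1 in 20 groups, and these genes share the library. The 4 flags come from 1 animal and are not independent of each other.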

How the results depend on the processing

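All 9 genes kept a negative log2 fold change in each of the 20 alternative fits, and Otc, Asl and Glud1 also stayed past the threshold in each of them. Called genes among the 9 numbered 6, with a range of 4 to 9 when a mouse was left out, the 9 coming without Pcx L-/- replicate 1, and 3 with limma on log2(FPKM + 1) where every gene with a value above 0 was fitted. Called at 2-fold were 2, or 2 to 4 with a mouse left out and 4 in the 800s alone. All genes called numbered 3632, with 2109 (without Pcx L-/- replicate 4), 2295 (without replicate 2) and up to 4602 (without replicate 1). Leaving out a mouse moved the calls in the lists, and those of the enzymes that use glutamine went from 5 to between 4 and 6. The 6 came without WT replicate 4. Substrate supply went from 5 to between 3 and 7, transport from 5 to between 3 and 5, and ammonia release from 4 to between 4 and 7. Calls for ornithine, proline and polyamines went from 6 to between 6 and 11, and those for regulators from 3 to between 0 and 7. For substrate supply, ammonia release, ornithine, proline and polyamines, and regulators, the most came without Pcx L-/- replicate 1. The 0 came without Pcx L-/- replicate 4, where 4 regulators had an unadjusted p under 0.05. In the 800s alone the calls were 12 for ornithine, proline and polyamines, 7 for ammonia release and 11 for regulators, and DESeq2 called 5 regulators. The Pcx L-/- minus WT difference in the log2 ratio of Nags to Cps1 was 0.23. It was -0.01 to 0.48 with a mouse left out, turning below 0 without WT replicate 4. The cause of these shifts was not tested.

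Replicate numbers did not pair the mice: deviations from the group means correlated at 0.101, -0.131, -0.101 and -0.07 between same-numbered mice. With a replicate block, transport had 3 calls and the Ass1 to Asl difference of 1.07 had an exact p of 0.125, the smallest that blocks allow. With the block, all 6 genes called lower were called again.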
